A study of Mus musculus with 8 samples.

Results

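The genes described here encode enzymes and membrane proteins of the lysosome: 37 were listed by name, and 36 of them had a probe set annotated to their symbol alone, out of 18193 genes measured. Cd63, a tetraspanin of late endosomes and lysosomes, was not analysed here because no probe set of its own was found in the annotation. Where a gene had several probe sets, the one with the highest mean over the 8 arrays stood for it, which was a choice among several for 22 members. All 36 were among the 13196 genes tested, which were those above the 40th percentile of the array, 5.21 to 5.28 log2 units, on both arrays of at least 1 group.

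The lysosome is an acid compartment in which proteins, glycans and lipids delivered by endocytosis, phagocytosis and autophagy are broken down. Its hydrolases are made as precursors, tagged with mannose 6-phosphate and sorted there, a vacuolar proton pump keeps the lumen acid, and heavily glycosylated membrane proteins line its wall. The factors of the MiT/TFE family, among them Tfeb, bind short sites in the promoters of many of these genes, and macrophages, as professional phagocytes, are rich in lysosomes.

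Total RNA of 2 established mouse lines was measured on 8 arrays. CT26 cells are described as a colon tumour epithelial line and RAW264 cells, called RAW here, as a macrophage line. Cells of either line were cultured by themselves or together, with CT26 in 1.5 ml in the well and RAW in 0.5 ml in a transwell insert that lets soluble molecules through but keeps the cells apart, and inserts were put in 8 hours after seeding. The experiment was done on 2 occasions, experiments 1 and 2 below, so each of the 4 groups, CT26 and RAW alone and CT26 and RAW in co-culture, holds 2 arrays. No gene was altered and no drug was given in any group. CT26 was detached with trypsin for RNA isolation and RAW was disrupted in place, so line, vessel and harvest cannot be told apart in any comparison of the lines.

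The labels were checked on marker genes. All 12 macrophage markers were above the floor on every RAW array and higher in RAW than in CT26 grown alone, by a median of 6.65 log2 units; their mean level was 12.6 to 13.0 on RAW arrays and 5.95 to 6.03 on CT26 arrays, co-cultured ones included. On CT26 arrays 7 to 9 of the 12 were above the floor, with Cd14 at 10.04 to 10.29. Of 12 epithelial markers, 8 or 9 were above the floor on each CT26 array and 5 or 6 on each RAW array, with Cdh1, the gene of E-cadherin, under it on all of them, and 3 of 8 tested (Krt18, Krt20 and Tjp1) were lower in RAW alone. Of 6 mesenchymal markers tested, 5 were lower in RAW alone, and of 2 lymphoid markers tested, 0 differed. Both of these, Cd3e and Cd79a, were above the floor on every array of either line. A value above the floor therefore does not by itself show that a marker is expressed. On CT26 arrays 6 or 7 of 7 measured mesenchymal markers were above the floor, with a mean level of 10.9 to 11.5, against 6.88 to 6.92 for the epithelial list. These markers therefore do not by themselves mark CT26 as epithelial.

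Promoter windows in RefSeq on GRCm38.p6, from 250 bases before the start of a gene to 50 bases after it, were held for 31 of the 36 members. The E-box CACGTG, which reads the same on both strands, was present in the windows of 13 of the 31 members, or 41.9%, against 8.09% of 27025 genes and 11.3% of the tested genes with a window. The longer form TCACGTGA, every copy of which also holds CACGTG, was in 6 of 31 members (Ctsa, Ctsd, Gla, Mcoln1, Atp6v0d1 and Atp6v1a), against 1.13% of all genes. The string GAGGAAGT, of the kind bound by the macrophage factor PU.1, was in 4 of 31 members on either strand (Ctsc, Ctss, Gla and Gusb), or 12.9%, against 3.69% of all genes. These counts describe letters and do not show binding. The 160 bases before the start are printed for 7 members on which the results below turn, with matches in capitals. Lamp1 holds 4 copies of CACGTG, Mcoln1, Ctsa and Ctsd hold the long form, Sgsh holds CACGTG once, Lipa holds neither CACGTG nor GAGGAAGT, and Ctsc holds GAGGAAGT on its other strand. Of 2 windows of Ctsa, the one with the match is shown.
Lamp1, chr8:13159001-13159160, plus strand: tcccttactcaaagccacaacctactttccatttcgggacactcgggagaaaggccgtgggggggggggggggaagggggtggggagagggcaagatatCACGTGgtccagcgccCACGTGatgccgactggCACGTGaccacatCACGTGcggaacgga
Mcoln1, chr8:3500359-3500518, plus strand: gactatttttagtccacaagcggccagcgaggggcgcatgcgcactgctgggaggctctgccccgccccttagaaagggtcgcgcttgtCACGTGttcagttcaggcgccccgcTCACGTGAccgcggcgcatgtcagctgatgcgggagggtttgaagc
Ctsa, chr2:164833613-164833772, plus strand: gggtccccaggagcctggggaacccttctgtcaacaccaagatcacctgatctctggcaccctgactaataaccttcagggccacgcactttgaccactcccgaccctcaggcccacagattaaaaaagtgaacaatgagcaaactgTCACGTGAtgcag
Ctsd, chr7:142387828-142387987, minus strand: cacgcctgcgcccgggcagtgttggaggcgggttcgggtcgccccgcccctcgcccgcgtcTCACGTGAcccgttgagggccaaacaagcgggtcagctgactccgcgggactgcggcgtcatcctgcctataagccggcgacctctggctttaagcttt
Sgsh, chr11:119355511-119355670, minus strand: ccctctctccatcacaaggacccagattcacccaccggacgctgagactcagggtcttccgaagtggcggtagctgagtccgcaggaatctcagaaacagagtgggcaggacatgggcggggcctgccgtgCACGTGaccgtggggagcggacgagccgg
Lipa, chr19:34527475-34527634, minus strand: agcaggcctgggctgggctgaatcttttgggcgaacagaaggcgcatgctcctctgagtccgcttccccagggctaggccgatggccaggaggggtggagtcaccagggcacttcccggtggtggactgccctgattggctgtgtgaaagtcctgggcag
Ctsc, chr7:88277925-88278084, plus strand: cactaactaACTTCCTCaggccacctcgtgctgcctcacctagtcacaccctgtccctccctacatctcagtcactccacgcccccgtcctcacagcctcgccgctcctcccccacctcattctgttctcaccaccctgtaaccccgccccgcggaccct

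RAW macrophages held more of most lysosomal transcripts than CT26 tumour cells. Between the lines grown alone, 21 of 36 members were higher in RAW and 0 were lower (limma, adjusted p under 0.05), against 17% of all tested genes called higher and 17.6% called lower. The median difference of the members was 1.25 log2 units, against -0.05 over all tested genes, and 32 of 36 were higher in RAW in both experiments. With the experiment as a block within each line, 29 members were higher and 2 lower, against 28.3% and 30.4% of all tested genes. In co-culture the picture was close to this: 20 members were higher in RAW and 0 lower, against 17.7% and 17%, and with the block 29 were higher and 1 lower, against 29% and 28.9%. Ctss and Ctsc, counted as higher in each of these fits, passed the floor filter only through the RAW groups, where they are high.

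**Figure D1:**
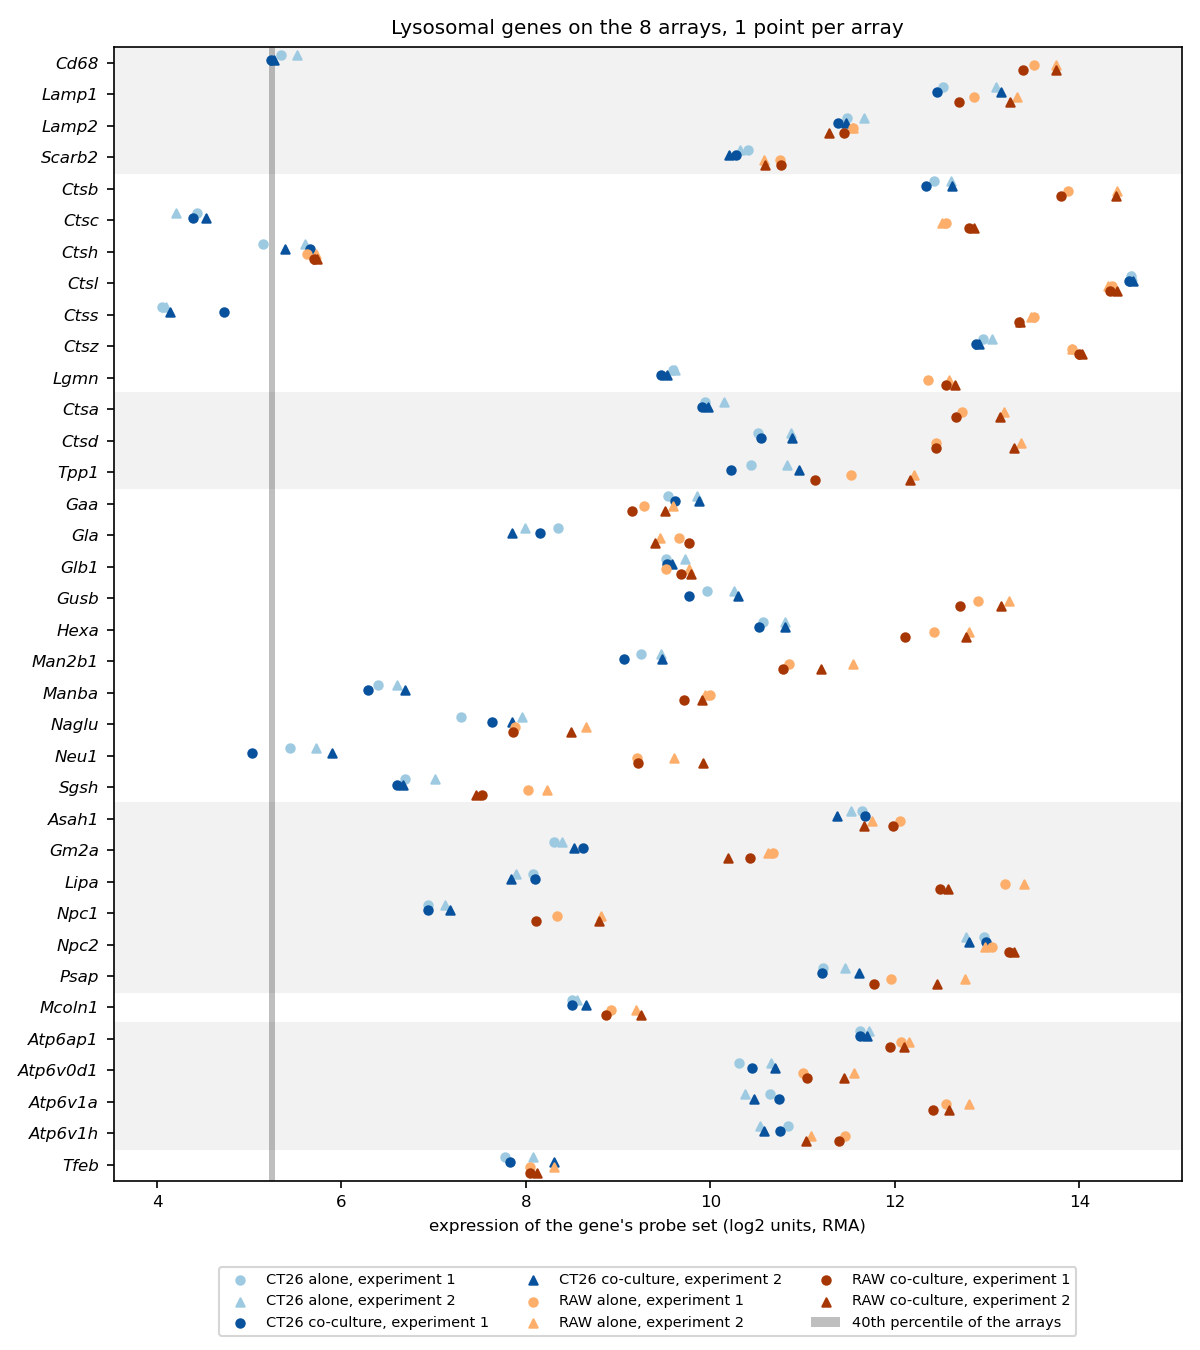
Expression of the 36 lysosomal genes on each of the 8 arrays (x axis, log2 units from RMA), grouped by role from membrane glycoproteins at the top to the transcription factor Tfeb at the bottom; circles are experiment 1, triangles experiment 2, and colours are the 4 groups. Cd68, Ctsc and Ctss stand near or left of the grey floor at 5.21 to 5.28 in CT26 and above 12 in RAW, whereas Lamp1, Lamp2, Ctsl and Npc2 lie at high values in both lines.

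Among the membrane glycoproteins the line contrast was uneven. Cd68, a heavily glycosylated protein of macrophage endosomes and lysosomes, read 5.34 and 5.52 in CT26 alone in experiments 1 and 2, and 13.51 and 13.75 in RAW alone. The difference was 8.20 ± 0.16 log2 units (SE, adjusted p = 2.63e-07). Lamp1 and Lamp2, the main structural glycoproteins of the lysosomal membrane, were high in both lines. Lamp1 read 12.52 and 13.09 in CT26 alone while RAW alone read 12.85 and 13.32, so the groups overlapped, and the difference of 0.28 ± 0.33 missed the threshold (adjusted p = 0.568; 0.0267 with the block; -0.0045 without the CT26 array of experiment 1). Lamp2 read 11.48 and 11.66, then 11.55 and 11.55 in RAW, a difference of -0.02 ± 0.12 (adjusted p = 0.927). Its other probe sets gave line differences of 1.33, 2.08 and -0.27, so no direction is given for Lamp2. For Scarb2, the receptor that carries glucocerebrosidase to lysosomes, the difference was 0.30 ± 0.13 (adjusted p = 0.116; 0.0161 with the block), and its other probe set gave -0.10.

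The cysteine proteases spanned a wide range. Ctss, cathepsin S, which trims the invariant chain of MHC class II in antigen-presenting cells, read 4.06 and 4.09 in CT26 alone, under the floor, and 13.51 and 13.48 in RAW alone. Taken against the floor, RAW alone was at least 300-fold higher (log2 difference of the measured values 9.42 ± 0.19). Ctsc, cathepsin C, a dipeptidyl peptidase that activates the serine proteases of leukocyte granules, read 4.43 and 4.21 in CT26 alone and 12.56 and 12.51 in RAW alone, which was at least 154-fold higher (8.21 ± 0.13). Both genes thus lay under the floor in the tumour line grown alone and at 12.51 to 13.51 in the macrophage line grown alone. They were among the tested genes only because their RAW arrays were above the floor, so no p-value is given for this difference.

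Other cysteine proteases differed less or went the other way. Lgmn, the asparagine-specific protease legumain, was higher in RAW alone by 2.87 ± 0.13, Ctsb by 1.62 ± 0.26 and Ctsz by 0.92 ± 0.11. Ctsl, cathepsin L, a broad endopeptidase, read 14.56 and 14.57 in CT26 alone and 14.35 and 14.31 in RAW alone. The groups did not overlap, and the difference of -0.24 ± 0.11 was past the threshold only with the block (adjusted p = 0.138; 0.0478 with the block). Ctsh, an aminopeptidase, was close to the floor on every array, at 5.15 to 5.74, with a difference of 0.30 ± 0.18 (adjusted p = 0.251).

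All 3 remaining proteases were higher in RAW alone in both experiments. Ctsa, which protects beta-galactosidase and neuraminidase in a complex, was higher by 2.91 ± 0.21, and Ctsd, the main aspartic protease, by 2.21 ± 0.38. Tpp1, a tripeptidyl peptidase whose loss causes a neuronal storage disease, was higher by 1.23 ± 0.42, with an adjusted p of 0.0603 (0.000125 with the block).

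Of 10 glycan-degrading enzymes, 7 were higher in RAW alone on the probe sets used. The largest differences were those of Neu1, the sialidase of the Ctsa complex (3.83 ± 0.35), Manba, the beta-mannosidase (3.47 ± 0.17), and Gusb, the beta-glucuronidase (2.95 ± 0.25). Neu1 read 5.44 and 5.72 in CT26 alone and 9.21 and 9.60 in RAW alone. Glb1, the beta-galactosidase that shares the complex with Neu1 and Ctsa, read 9.52 and 9.73 in CT26 alone, close to its 9.52 and 9.77 in RAW alone. Of the 3 partners, Neu1 and Ctsa were therefore higher in RAW on the probe sets used, and the difference of Glb1 was 0.02 ± 0.14 (adjusted p = 0.93). Dimmer probe sets gave smaller line differences, 0.06 for Ctsa and, with means near the floor, 0.38 and 0.72 for Neu1. Gaa, the acid glucosidase that degrades glycogen, read 9.54 and 9.85 in CT26 alone and 9.28 and 9.59 in RAW alone. Gaa was lower in RAW within each experiment, by -0.25 and -0.26, and past the threshold only with the block (adjusted p = 0.372; 0.0313 with the block). In co-culture the same contrast was -0.42 ± 0.20 (adjusted p = 0.157; 0.00385 with the block). For Gla, the alpha-galactosidase, the probe set used gave 1.40 ± 0.20 (adjusted p = 0.00164), while its other probe sets gave -0.48 and -0.12, so its direction rests on the probe set. Sgsh was higher by 1.28 ± 0.15 on the probe set used and by 0.06 on its other one.

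Among the 6 genes of lipid breakdown and transfer, Lipa stood out in size. Lipa, the acid lipase that hydrolyses cholesteryl esters and triglycerides, read 8.07 and 7.89 in CT26 alone and 13.20 and 13.40 in RAW alone, a difference of 5.32 ± 0.15 (adjusted p = 6.58e-07). Gm2a, the activator that presents GM2 ganglioside to hexosaminidase, was higher by 2.30 ± 0.13, and Hexa, a subunit of that enzyme counted above among the glycosidases, by 1.92 ± 0.25. The pair of cholesterol export proteins differed unequally: Npc1, the membrane transporter, was higher in RAW by 1.54 ± 0.26, and the soluble carrier Npc2 read 12.97 and 12.77 in CT26 alone and 13.05 and 12.98 in RAW alone (difference 0.15 ± 0.13, adjusted p = 0.43). Psap, the precursor of the saposins, was higher by 1.01 ± 0.33 (adjusted p = 0.0535; 6.33e-05 with the block), and Asah1, the acid ceramidase, by 0.32 ± 0.18 (adjusted p = 0.221; 0.0173 with the block).

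Of 4 proton pump members, 3 were higher in RAW alone. Atp6v1a, the catalytic subunit, was higher by 2.17 ± 0.17, Atp6v0d1 by 0.80 ± 0.24 and the accessory subunit Atp6ap1 by 0.44 ± 0.12, while Atp6v1h, a regulatory subunit, missed the threshold at 0.58 ± 0.20 (adjusted p = 0.0585; 0.000871 with the block). The calls of Atp6v0d1 and Atp6ap1 were lost when 1 array was left out: for Atp6v0d1 either CT26 alone array, either CT26 co-culture array or the second RAW alone array (adjusted p of 0.0577 to 0.198), and for Atp6ap1 any of the CT26 alone or RAW alone arrays (0.0638 to 0.138). Of 13 other pump subunits tested, 7 were higher and 0 lower, against 17% and 17.6% of all tested genes. The calcium channel Mcoln1 differed by 0.53 ± 0.17 (adjusted p = 0.0518; 0.00153 with the block). Tfeb itself read 7.77 and 8.07 in CT26 alone and 8.04 and 8.30 in RAW alone, with overlapping groups and a difference of 0.25 ± 0.20 (adjusted p = 0.384; 0.0548 with the block).

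**Figure D2:**
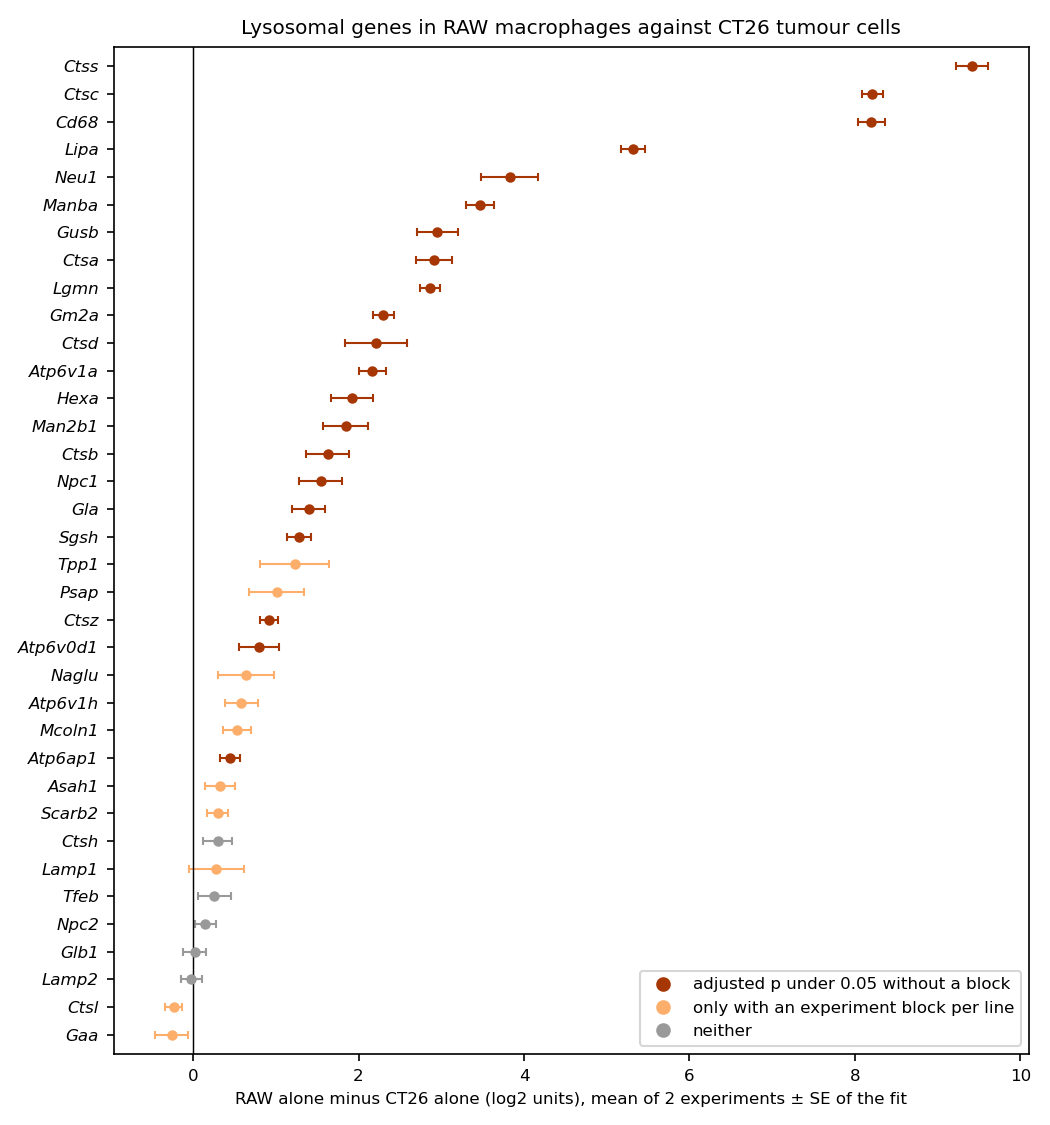
RAW alone minus CT26 alone for the 36 lysosomal genes (x axis, log2 units; points are means of 2 experiments, bars the SE of the limma fit), sorted by size and coloured by the fit in which the gene passed an adjusted p of 0.05. The values run from 9.42 for Ctss to -0.26 for Gaa, and 20 of 36 exceed 1 log2 unit.

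Genes outside the named set, taken from lists of the same pathways, showed the line contrast to differing degrees. For genes outside the set, here and below, only the probe set with the highest mean was examined, so their dependence on the probe set is not known. Over all tested genes, 17% were called higher in RAW alone and 17.6% lower. Of 21 other lysosomal hydrolases and cofactors tested, 10 were higher in RAW alone and 1 was lower (median 0.46), and of 20 other lysosomal membrane proteins, one of which, Laptm5, is also among the macrophage markers, 9 were higher and 3 lower (median 0.51). Of 12 genes for mannose 6-phosphate tagging and sorting, 6 were higher and 0 lower; they included M6pr and Igf2r, the pair of mannose 6-phosphate receptors, at 1.50 ± 0.12 and 1.97 ± 0.20. Of 15 MiT/TFE factors and their regulators tested, 6 were higher and 0 lower. Mitf was higher by 2.91 ± 0.16 and Tfec by 5.19 ± 0.23, whereas Tfe3 (0.43 ± 0.32, adjusted p = 0.343) and Tfeb missed the threshold. The autophagy list was not far from the shares over all tested genes, with 2 of 16 higher and 4 lower (median -0.15). The cathepsin inhibitors were split, with 1 of 4 higher (Cst3, cystatin C, 1.49 ± 0.14) and 2 lower.

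In RAW cells, Lipa and Sgsh were called lower in co-culture with CT26 only in the fit with the block per line. With an experiment term shared by the lines, 0 of 36 members passed, against 0.508% of all tested genes called higher and 0.599% lower. The fall of Sgsh was seen on 1 of its 2 probe sets. Without a block, 0 of 36 members passed the threshold in RAW co-culture against RAW alone (3 at an unadjusted p under 0.05), where 0.25% of all tested genes did. With the block, 0 members were higher and 2 lower, against 1.55% and 2.01% of all tested genes, and 6 had an unadjusted p under 0.05. The median difference of the members was -0.08 log2 units, against 0.01 over all tested genes, and ran from -0.23 to 0.10 with 1 array left out. The difference was below 0 in both experiments for 23 of 36 members and above 0 in both for 8, against 29.1% and 32.5% of all tested genes. In bulk RNA, fewer cells of a kind and less RNA per cell cannot be told apart. Most differences were small: 31 of 36 members lay within 0.25 log2 units of 0, a count not made over all tested genes.

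Lipa had the largest difference among the probe sets used. It read 13.20 in RAW alone and 12.49 in RAW co-culture in experiment 1, and 13.40 and 12.58 in experiment 2, so both co-cultured arrays lay below both others. The difference was -0.77 ± 0.15 log2 units, 1.7-fold lower (SE, adjusted p = 0.196; 0.00548 with the block, and 0.0606 with an experiment term shared by the lines). The other 2 probe sets of Lipa gave -0.78 and -0.77. A dimmer probe set of Gla, above the floor on 7 of 8 arrays, differed by more, with 2.00 and 0.51 in the experiments and a mean of 1.25, while the brighter one used for Gla gave 0.02. Lipa stayed well above its CT26 level in co-culture, where RAW exceeded CT26 by 4.57 ± 0.15.

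Sgsh, the sulfamidase that removes N-linked sulfate from heparan sulfate, read 8.02 in RAW alone and 7.52 in RAW co-culture in experiment 1, and 8.23 and 7.46 in experiment 2. The groups did not overlap, and the difference was -0.63 ± 0.15 (adjusted p = 0.336; 0.0287 with the block, and 0.0673 with the shared term). A second probe set, of similar mean intensity, gave -0.26 and 0.27 in the experiments, a mean of 0.01, so the fall rests on the probe set used. Neighbouring steps of heparan sulfate breakdown did not move as a block. Hgsnat, the membrane acetyltransferase that acts after Sgsh, read 10.20 and 10.36 in RAW alone and 10.96 and 11.23 in RAW co-culture, a rise of 0.81 ± 0.18 (adjusted p = 0.305; 0.00397 with the block). Naglu, which acts on the product of Hgsnat, differed by -0.09 ± 0.34, Gusb by -0.13 ± 0.25, the iduronidase Idua by 0.25 ± 0.21 and the iduronate sulfatase Ids by -0.47 ± 0.14 (adjusted p with the block 0.0735), and none of these 4 passed the threshold.

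The next members by size did not pass the threshold in any fit. Gm2a read 10.67 and 10.62 in RAW alone and 10.42 and 10.19 in RAW co-culture (-0.34 ± 0.13, adjusted p = 0.124 with the block), and Psap read 11.95 and 12.75 against 11.77 and 12.46 (-0.24 ± 0.33, 0.226 with the block). Ctsc was higher, with 12.56 and 12.51 in RAW alone and 12.81 and 12.86 in co-culture (0.30 ± 0.13, 0.219 with the block), as was Npc2, with 13.05 and 12.98 against 13.24 and 13.29 (0.25 ± 0.13, 0.184 with the block). Over the 6 genes of lipid breakdown and transfer, 5 were lower in both experiments and Npc2 alone was higher. On the probe sets used, the structural membrane proteins, the cathepsins other than Ctsc, the pump subunits, Mcoln1 and Tfeb all differed by less than 0.25 log2 units. Other probe sets exceeded this for Lamp2 (-0.33), Ctsb (-0.31 and 0.26) and Atp6v1h (-0.29).

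**Figure D3:**
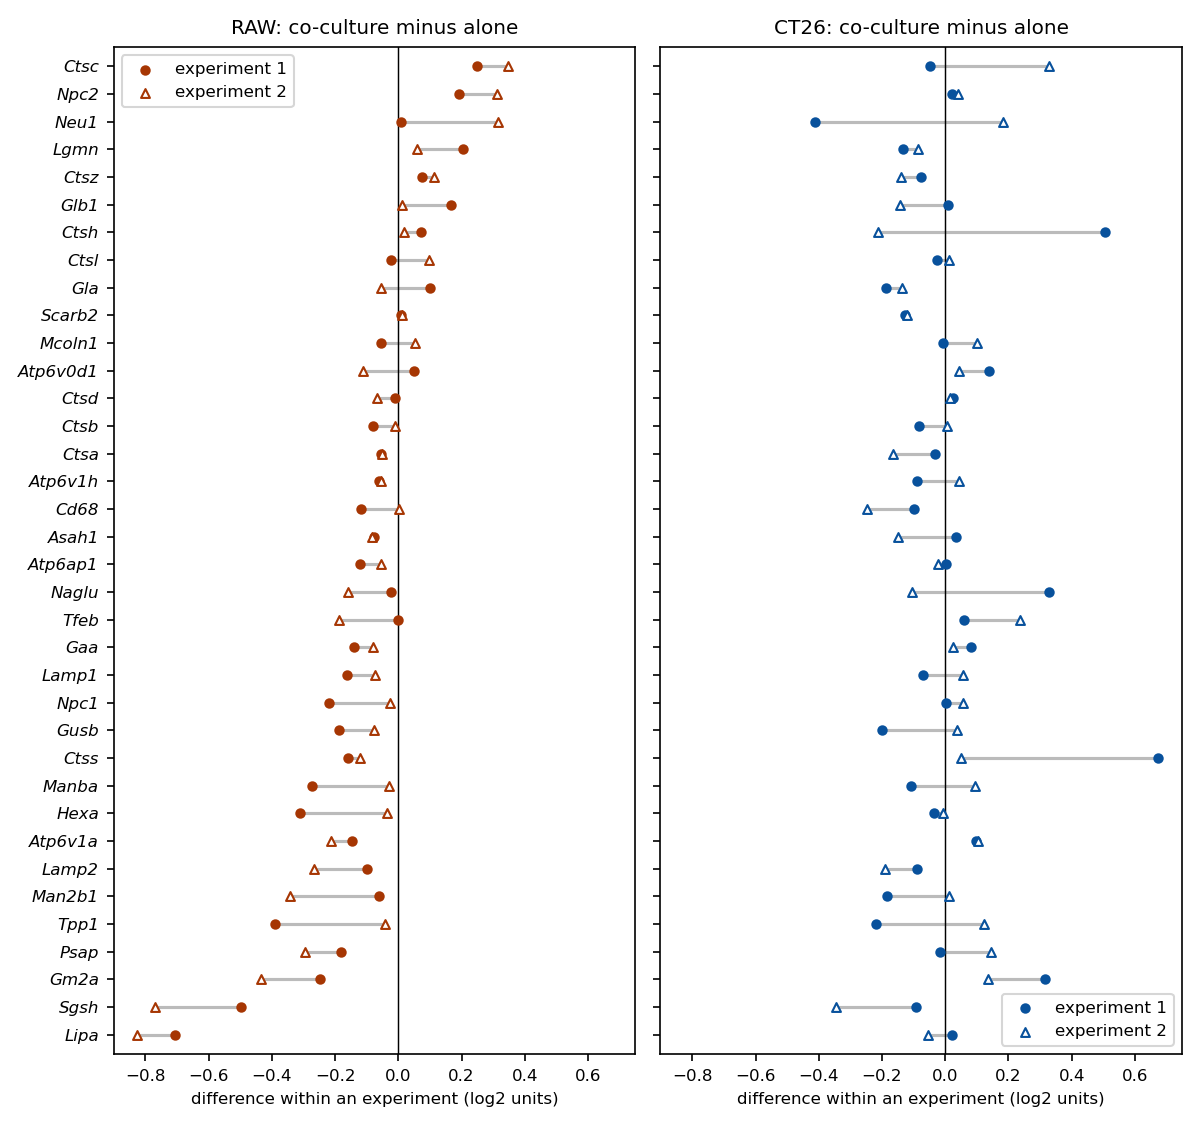
Co-culture minus alone within each experiment (x axis, log2 units; filled circles experiment 1, open triangles experiment 2) for the 36 genes in RAW cells (left) and CT26 cells (right), both sorted by the mean in RAW. Lipa and Sgsh lie between -0.50 and -0.83 in RAW in both experiments, and in CT26 most genes lie near 0, with the widest spread between experiments for Ctsh, Ctss and Neu1.

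Among genes of the same pathways outside the named set (lists of 4 to 21 tested), 9 were lower and 2 higher in RAW co-culture with the block. Over all tested genes the shares with the block were 2.01% lower and 1.55% higher, and none of the pathway genes passed without it. Other probe sets of these pathway genes were not examined. With the experiment term shared by the lines, Mitf, Hgsnat and Cd164 kept the call (adjusted p of 0.017, 0.0144 and 0.0233) and the other 8, all lower, missed it, as did all 36 members, against 0.508% of all tested genes called higher and 0.599% called lower. The hydrolases Acp5 (tartrate-resistant acid phosphatase, -0.83 ± 0.50), Ctsk (cathepsin K, -0.88 ± 0.24) and Dnase2a (-0.55 ± 0.22) were lower, the first pair best known from bone-resorbing osteoclasts. Adjusted p with the block was 0.0339, 0.0414 and 0.0431 for these, 3 of 21 in their list, while each SE is that of the fit without it. In the membrane list 2 of 20 were lower, the sialic acid exporter Slc17a5 (-0.46 ± 0.27) and the channel Tpcn1 (-0.50 ± 0.43), and 2 were higher, Hgsnat and the sialomucin Cd164 (0.88 ± 0.13; adjusted p = 0.0854, 0.00992 with the block). Gnptab, the enzyme that adds the mannose 6-phosphate tag, was lower by -0.42 ± 0.11 (0.0498 with the block), 1 of 12 in the sorting list. Mitf, a close relative of Tfeb, read 11.49 and 11.37 in RAW alone and 10.46 and 10.42 in co-culture, -0.99 ± 0.16 (adjusted p = 0.109; 0.00425 with the block), 1 of 15 in its list. Tfeb over the same arrays differed by -0.09 ± 0.20 and Tfe3 by 0.07 ± 0.32. In the autophagy list 2 of 16 were lower, Map1lc3a and Wipi1, and of 13 other pump subunits and 4 cathepsin inhibitors 0 passed. Of the 12 macrophage markers, 1 was lower with the block, Adgre1, the F4/80 antigen (-0.75 ± 0.30, adjusted p = 0.0306; 0.0879 with the shared term), and the median of the list was -0.03.

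CT26 cells gave no call. Of 36 members, 0 passed the threshold without the block or with it (limma; 0 and 1 at an unadjusted p under 0.05), and the same held for 0% of all tested genes in either fit. The median was -0.01, as over all tested genes. Of 36 members, 35 lay within 0.25 log2 units of 0, a count not made over all tested genes. Between the experiments 18 of 36 members changed sign, as did 6085 of 13196 tested genes. The largest mean difference among the probe sets used was that of Ctss, which read 4.06 and 4.09 alone and 4.73 and 4.14 in co-culture, all under the floor, so no fold is given. Gm2a read 8.31 and 8.39 alone and 8.62 and 8.52 in co-culture (0.22 ± 0.13, adjusted p = 0.876 with the block), and Sgsh 6.69 and 7.01 against 6.60 and 6.66 (-0.22 ± 0.15, 0.899 with the block). For neither of them did the groups overlap on these probe sets, but their other probe sets above the floor gave -0.24 for Gm2a and -0.01 for Sgsh, so neither direction is settled. Cd68 read 5.34 and 5.52 alone and 5.24 and 5.27 in co-culture, at the floor, so no difference is given. Gla read 8.34 and 7.99 alone and 8.16 and 7.85 in co-culture (-0.16 ± 0.20). Tfeb read 7.77 and 8.07 alone and 7.83 and 8.31 in co-culture (0.15 ± 0.20). Ctss, Ctsc and Cd68 on co-cultured CT26 arrays remained at 5.27 or below, and the macrophage marker list was no higher on them than on the CT26 arrays without RAW (median -0.02).

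The difference between the 2 responses was tested directly and was past the threshold for 0 of 36 members, without the block (2 at an unadjusted p under 0.05; 0.00758% of all tested genes called) or with it (6; 0.743%). For Lipa the RAW response minus the CT26 response was -0.75 ± 0.21, at -0.73 and -0.77 in the experiments. With the block its SE was 0.12 and its adjusted p 0.0569. The CT26 response of Lipa itself was -0.02 on the probe set used, with a 95% interval of -0.22 to 0.19 in the fit with the block. Its other 2 probe sets, above the floor on all arrays, gave -0.25 and 0.38 in CT26, against -0.78 and -0.77 in RAW. The CT26 response of Lipa and the size of the difference therefore depend on the probe set. For Gm2a the difference was -0.57 ± 0.18 (adjusted p = 0.158 with the block) on the probe set used, and on the other one above the floor the responses were -0.28 in RAW and -0.24 in CT26. For Sgsh the difference was -0.41 ± 0.21 (0.37 with the block).

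The 2 experiments themselves differed in lysosomal transcripts in the same direction across groups, a comparison added after the values had been seen. In the fit with the experiment as a term shared by the lines, 15 of 36 members were higher in experiment 2 and 3 were lower, against 16.8% and 11.3% of all tested genes. The median shift was 0.17 log2 units, against 0.01 over all tested genes, and 20 of 36 members were higher in experiment 2 in all 4 groups, against 24.9% of all tested genes. Tpp1 was higher in experiment 2 by 0.39 in CT26 alone, 0.73 in CT26 co-culture, 0.68 in RAW alone and 1.03 in RAW co-culture. Its mean shift was 0.71 ± 0.11 (adjusted p = 0.00485). Ctsd shifted by 0.61 ± 0.12, Lamp1 by 0.57 ± 0.07, Naglu by 0.57 ± 0.10, Neu1 by 0.56 ± 0.11 and Psap by 0.53 ± 0.10. Gla (-0.31 ± 0.06), Atp6v1h (-0.30 ± 0.07) and Asah1 (-0.26 ± 0.07) were lower.

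For Lamp1 the shift was larger than either co-culture difference, which were -0.01 in CT26 and -0.12 in RAW. The members with CACGTG in their window had a median shift of 0.22 (13 genes, 6 called higher and 1 lower) and those without had 0.14 (18 genes, 7 and 0). Their median line differences were 0.80 and 1.88 log2 units. The median SE of a member's co-culture difference was 0.18 log2 units without the block and 0.09 with it. What differed between the experiments is not given in the sources used here, and its part in these values was not tested.

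**Figure D4:**
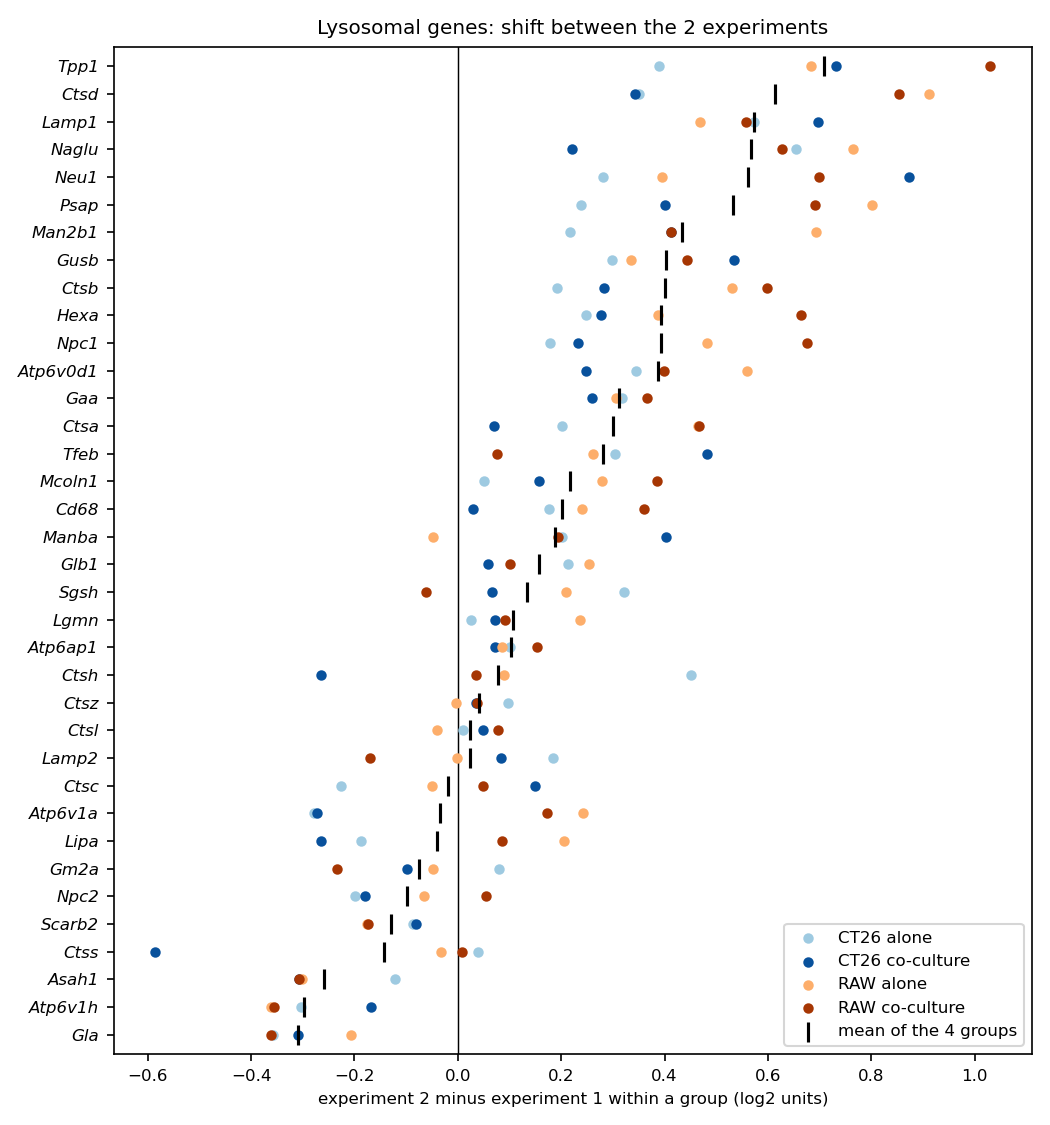
Experiment 2 minus experiment 1 within each of the 4 groups (x axis, log2 units; coloured points, 1 per group) for the 36 lysosomal genes, with the mean of the groups as a black tick. In 20 genes all 4 points lie right of 0, with Tpp1 at the top (mean 0.71), and in 4 genes (Gla, Atp6v1h, Asah1 and Scarb2) all lie left of it.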

How the data were processed

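Total RNA was measured on 1-colour arrays, 1 per sample. The deposited values are log2 expression values that the authors made with RMA in affy, per the submitters' processing notes; neither version nor settings nor genome build is given in the sources used here. Array medians lay between 5.88 and 5.94. RMA fits probe sets over all arrays, so a change in total RNA per cell would not be seen and folds near background are understated; the number of arrays limits precision.

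Of 45101 probe sets, 34945 had 1 symbol and 932 had several in the platform annotation; 64 were controls. Group means of the 8 arrays were fitted together (limma 3.58.1, R 4.3.3; 4 residual degrees of freedom, 2 with an experiment block per line, called the block), two-sided, with Benjamini-Hochberg adjustment over 13196 genes at 0.05. The fit was tested on simulated data. The design text says that the experiment was repeated, and deviations of same-numbered arrays from group means correlated at 0.484 to 0.765 in every pair of groups, so replicate numbers were taken to pair samples. P-values measure the spread between 2 experiments only. Values after ± are SEs of the fit without a block, also beside a p-value with the block, except for the shift between experiments. The SE of that shift comes from the fit with the shared term.

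Members with a value on every array were those called with or without the block, filled to the 6 largest same-sign differences in each line, and for the lines the 4 largest differences and those lower in RAW; other genes are given as examples chosen after their values were seen. Members and lists were chosen with earlier results of these data known. Alternatives were the block, the probe set rule, the floor, the normalization, the variance model, the groups fitted and leaving out each array.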

Additional observations from a re-analysis of the deposited data

How the results depend on the processing

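With the replicate numbers as a paired block per line, the count of members called in RAW co-culture rose from 0 to 2; with a block shared by the lines it stayed at 0, and no other setting gave a call in either line's co-culture. For the lines grown alone the count of members called was 19 to 24 with 1 array left out and 30 or 31 with the blocks, from 21. The median of the members moved in these cases. In CT26 co-culture it was -0.046 with the probe set of highest variance and ran from -0.094 to 0.086 with 1 array left out. In RAW co-culture it was -0.10 with cyclic loess added and ran from -0.23 to 0.10. For the difference of the responses it was -0.10 with the probe set of highest variance, -0.059 with a floor at the 60th percentile, -0.10 with cyclic loess and -0.043 with median centring, and ran from -0.26 to 0.090. For RAW alone minus CT26 alone it was 1.04 with the mean of all probe sets and 1.54 with the probe set of highest variance, and ran from 1.05 to 1.40. For the co-cultured lines it was 1.39 with the probe set of highest variance and ran from 0.97 to 1.28. Single genes turned direction in the line contrast 4 times in 557 values. With the probe set of highest variance Gla was at -0.48, Scarb2 at -0.10 and Atp6v1h at -0.069, and Lamp1 ran from -0.0045 (without CT26 alone replicate 1) to 0.57 with 1 array left out. The medians of the co-culture responses therefore have no settled sign when an array is left out, which unpairs the experiments. The cause of the other moves was not tested. In the line contrast 12 of 557 values fell short of the threshold and 34 came past it. The losses there were those of Atp6v0d1, Atp6ap1 and, with the mean of all probe sets, Gla (0.26). For the co-cultured lines only Ctss, Ctsc, Cd68, Lipa and Gaa were followed (90 values), and for RAW co-culture only Lipa and Sgsh (36 values). Of these values 0 turned, and other members, among them Scarb2, were not followed in the co-cultured lines.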
